A study of Homo sapiens with 8 samples.

Results

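The genes described here are 46 genes of the major histocompatibility complex (MHC) and of the interferon response, chosen by their symbols from a list of MHC class I and class II chains, peptide-loading proteins, interferon factors and interferon-stimulated genes. All 46 were found among the 18564 genes of the expression table, and all 8 libraries were used. LP-1 is a human multiple myeloma line, labelled B lymphoblast, and its bortezomib-resistant (BR) derivative had been cultured with bortezomib, a proteasome inhibitor, for 2 months. Wild-type (WT) and BR cells received DMSO vehicle or 25 nM SI-2, an inhibitor of the coactivator SRC-3, for 24 h, and each of the 4 conditions had 2 libraries. The WT vehicle cells were labelled untreated in one field and DMSO in the title, and whether the BR line was a clone or a pool was not given in the sources used here. Estimated counts summed to 17997771 to 18570027 per library. All cells grew in serum-containing RPMI-1640, and interferon was not among the named treatments. The study describes its expression data of vehicle and SI-2 treated BR cells as coming from biologically independent experiments. For WT cells neither the labels nor the study say whether the 2 libraries of a condition came from separate cultures, so p-values that rest on them measure the spread between these libraries, which may be technical.

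MHC class I molecules carry peptides from inside the cell to the surface, where CD8 T cells and natural killer cells read them, and every class I heavy chain pairs with beta-2-microglobulin (B2M). MHC class II molecules present peptides taken up from outside, depend on the invariant chain CD74 and the HLA-DM editor, and are switched on by the transactivator CIITA. Plasma cells usually lose CIITA and class II as they mature from B cells. Interferons act through JAK kinases on transcription factors that include STAT2 and IRF9, which bind the interferon-stimulated response element (ISRE) in the promoters of antiviral genes such as the IFIT, OAS and MX families.

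Promoter sequences, running from 250 bases before to 50 bases after the transcription start, were available in RefSeq (GRCh38.p14) for 36 of the 46 genes, in 46 windows of 300 bases because several genes had more than 1 start. The 10 genes without an entry were CIITA, HLA-DRA, HLA-E, IFIT2, IFITM2, IRF2, IRF7, MX2, NLRC5 and OAS2. Windows were searched on both strands for the ISRE core GAAANNGAAA, which 3.57% of all 35116 promoter windows held. At least 1 match stood in 23 of the 36 genes. These letters were found in genes of very different level, as 6 promoters show, with the match in capitals and each sequence written 5′ to 3′ along its gene. B2M (chr15:44711267-44711566, plus strand) and TAP1 (chr6:32853655-32853954, minus strand) belonged to the most abundant members. ISG15 (chr1:1013247-1013546, plus strand) and IFIT1 (chr10:89392373-89392672, plus strand) belonged to those with a mean below 1 FPKM. IFIT5 (chr10:89414318-89414617, plus strand) and DTX3L (chr3:122564088-122564387, plus strand) differed between replicate numbers within a line, IFIT5 with opposite signs in the 2 lines. The fit that gave this was added after the data had been seen.
B2M: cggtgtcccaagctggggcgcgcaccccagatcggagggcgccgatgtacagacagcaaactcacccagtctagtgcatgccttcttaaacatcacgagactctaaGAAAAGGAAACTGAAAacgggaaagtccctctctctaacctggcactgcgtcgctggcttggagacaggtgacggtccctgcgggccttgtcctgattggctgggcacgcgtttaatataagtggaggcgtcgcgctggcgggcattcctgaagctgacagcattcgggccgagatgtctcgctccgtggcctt
TAP1: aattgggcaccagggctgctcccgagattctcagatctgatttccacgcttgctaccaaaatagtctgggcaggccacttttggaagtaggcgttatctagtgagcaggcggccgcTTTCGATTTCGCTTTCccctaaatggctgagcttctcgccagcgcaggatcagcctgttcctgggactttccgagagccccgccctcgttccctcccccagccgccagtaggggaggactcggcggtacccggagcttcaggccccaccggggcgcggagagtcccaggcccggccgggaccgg
ISG15: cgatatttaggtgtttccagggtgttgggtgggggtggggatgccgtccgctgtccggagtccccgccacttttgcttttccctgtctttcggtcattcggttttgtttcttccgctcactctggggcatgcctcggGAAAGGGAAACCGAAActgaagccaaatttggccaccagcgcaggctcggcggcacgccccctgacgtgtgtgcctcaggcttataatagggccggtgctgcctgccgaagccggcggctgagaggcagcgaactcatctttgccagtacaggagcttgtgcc
IFIT1: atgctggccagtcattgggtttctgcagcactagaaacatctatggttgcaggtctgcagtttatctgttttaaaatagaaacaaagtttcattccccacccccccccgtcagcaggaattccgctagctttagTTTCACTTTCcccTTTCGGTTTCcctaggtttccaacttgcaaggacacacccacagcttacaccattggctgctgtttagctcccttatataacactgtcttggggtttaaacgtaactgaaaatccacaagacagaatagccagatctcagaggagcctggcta
IFIT5: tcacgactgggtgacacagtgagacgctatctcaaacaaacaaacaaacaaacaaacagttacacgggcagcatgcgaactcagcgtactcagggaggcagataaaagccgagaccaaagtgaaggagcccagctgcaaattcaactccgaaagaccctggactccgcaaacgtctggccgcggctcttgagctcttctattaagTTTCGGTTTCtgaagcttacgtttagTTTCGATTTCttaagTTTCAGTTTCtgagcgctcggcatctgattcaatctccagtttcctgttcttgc
DTX3L: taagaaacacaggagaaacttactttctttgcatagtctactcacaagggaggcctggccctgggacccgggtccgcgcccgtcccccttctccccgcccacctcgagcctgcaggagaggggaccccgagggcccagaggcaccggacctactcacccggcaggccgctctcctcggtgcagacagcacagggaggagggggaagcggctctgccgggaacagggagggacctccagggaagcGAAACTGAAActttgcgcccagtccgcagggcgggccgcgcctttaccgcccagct

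In B2M the first of 2 overlapping matches began 144 bases before the start, in TAP1 134 and in ISG15 113 bases before it. IFIT1 held a match at 116 and another at 103 bases before the start, and IFIT5 held 3, at 45, 19 and 4 bases. The single match of DTX3L began 6 bases before its start. Sorted by level, a match stood in 9 of the 21 genes with a mean FPKM of at least 10, in all 4 genes between 1 and 10, and in 10 of the 11 genes under 1. The Y box GATTGG, the letters bound by the NF-Y factor in MHC promoters, was found in 9 of the 36 genes against 15.1% of all windows, and 7 of those 9 were MHC genes or B2M (HLA-B, HLA-C, HLA-F, HLA-DMA, HLA-DMB, HLA-DPB1 and B2M). A gene counts here if any of its windows held the letters, so the shares of genes and of windows are not on the same footing, and a match is a description of the sequence only.

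Levels were compared between genes as FPKM, a count corrected for the length of the gene and the size of the library. Several MHC genes were among the most abundant RNAs of these cells, whereas every IFIT, OAS and MX gene had a mean below 1 FPKM. B2M had a mean of 1687 FPKM over 8 libraries and ranked 13 of 18564 genes, and CD74, with 927 FPKM, ranked 67. HLA-B, HLA-C and HLA-DRA, with means of 734, 589 and 491 FPKM, ranked 86, 106 and 132. Others stood lower, with HLA-F at rank 2689, HLA-DPB1 at 3695 and HLA-DMB at 5430. By contrast 15 of the 46 genes had a mean below 1 FPKM, where the median of all genes was 3.30 FPKM. Those 15 were all 4 IFIT genes, OAS1, OAS2, OAS3, MX1, MX2, IFITM1, IFITM2, ISG15, IFI44, IFI44L and PARP9.

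**Figure D1:**
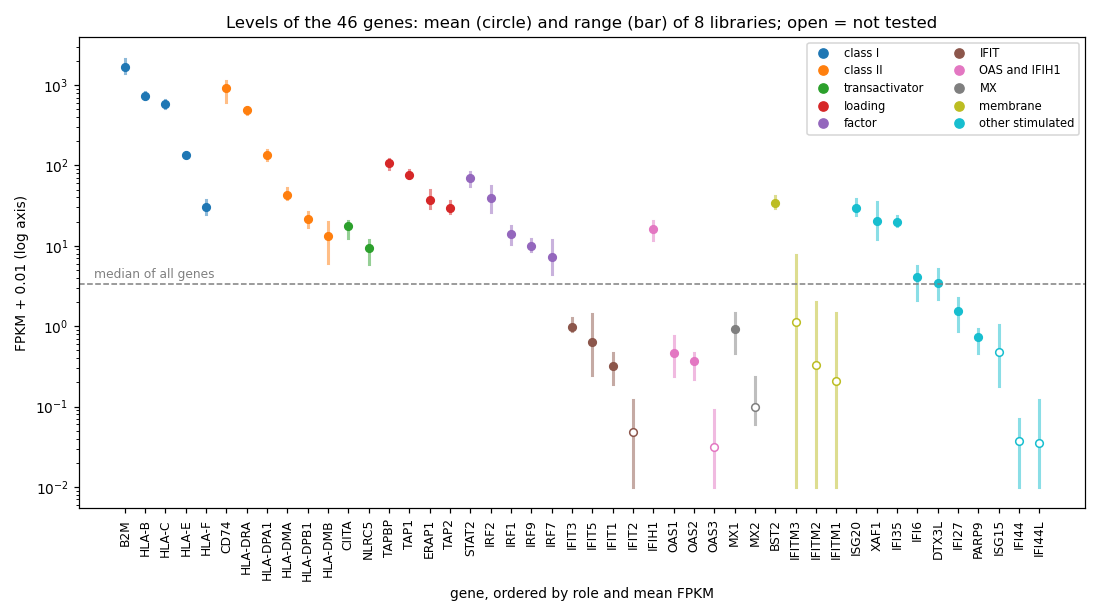
Mean FPKM (circle) and range over the 8 libraries (bar) of the 46 genes, grouped by role, on a log axis after adding 0.01 to each value. Open circles mark the 9 genes below the count filter. All 22 genes of the first 5 roles lie above the median of all genes (dashed line, 3.30 FPKM), and all IFIT and MX genes lie below it.

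The 5 class I genes ran from 30.6 FPKM for HLA-F to 1687 for B2M. B2M, the light chain, had FPKM values, replicate 1 and then replicate 2, of 1441 and 1529 for WT vehicle, 1770.3 and 1561 for WT SI-2, 1403 and 1982 for BR vehicle and 1674 and 2136 for BR SI-2. Both the lowest and the highest library were BR ones, so the lines overlapped. HLA-E, which is read by natural killer cells, had a mean of 134 FPKM. The classical class I genes are near-identical in sequence, so the split of reads between HLA-B and HLA-C is uncertain. The estimated counts of all 5 class I genes were fractional in at least 1 library. Those of STAT2, TAP1 and other members were fractional too, which does not show which genes shared reads.

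All 6 class II genes were expressed. HLA-DRA, the nearly monomorphic DR alpha chain, had FPKM values of 479.5 and 492 for WT vehicle, 483 and 508 for WT SI-2, 537 and 443 for BR vehicle and 512 and 473 for BR SI-2, and the lowest library was a BR one. CIITA, the switch for class II, had FPKM values of 12.5 and 17.1 for WT vehicle, 20.6 and 19.1 for WT SI-2, 12.5 and 20.03 for BR vehicle and 19.2 and 20.4 for BR SI-2, lowest in the replicate 1 vehicle libraries of both lines. The other class II chains had means of 136 FPKM (HLA-DPA1) and 21.5 FPKM (HLA-DPB1), and the peptide editor subunits HLA-DMA and HLA-DMB had 43.3 and 13.2 FPKM. CD74 counts came mostly from 1 transcript: the transcript of the short form held 89.6% to 92.7% of the estimated CD74 reads, and that of the long form, which adds a protease-inhibitor domain, held 6.20% to 8.47%. In each of the 4 conditions the long form had the larger share in the replicate 2 library.

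The labels give the cells as B lymphoblasts of multiple myeloma, a tumour of plasma cells. All 8 plasma cell markers examined were above 3 counts in every library, summing to 2190 to 3793 CPM (a library's counts rescaled to a fixed total). The B cell markers MS4A1, PAX5 and CD22 were at 2 counts or fewer throughout, while BLK had 380 to 705 counts. In RNA from whole cultures, fewer cells of a type and less RNA per cell cannot be told apart.

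Peptide loading was well represented. TAPBP (tapasin, the bridge between class I and the peptide transporter) had a mean of 106 FPKM, and the transporter subunits TAP1 and TAP2 had 76.5 and 29.4 FPKM. TAP1 stayed between 68.9 and 86.8 FPKM, with 72.1 and 68.9 for WT vehicle, 74.9 and 77.7 for WT SI-2, 70.5 and 86.8 for BR vehicle and 77.1 and 84.3 for BR SI-2. ERAP1, which trims peptides in the endoplasmic reticulum, had a mean of 36.8 FPKM, and NLRC5, the class I transactivator, had 9.27.

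All 5 interferon factors were present. STAT2, the subunit particular to type I and III interferon signalling, was the most abundant at 70.3 FPKM, followed by IRF2 at 39.5 and IRF1 at 14. IRF1 had FPKM values of 12.8 and 15.9 for WT vehicle, 13.8 and 17.5 for WT SI-2, 10.6 and 12.8 for BR vehicle and 14.6 and 13.98 for BR SI-2. IRF9, the DNA-binding partner of STAT2, had FPKM values of 12.2 and 9.28 for WT vehicle, 10.4 and 10.2 for WT SI-2, 9.27 and 9.49 for BR vehicle and 11.04 and 8.7 for BR SI-2. Neither fell below 8.70 FPKM in any library. IRF7, which amplifies type I interferon, had a mean of 7.35 FPKM.

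The antiviral effectors fell far below these factors. IFIT3 was the most abundant IFIT gene, with FPKM values of 1 and 1.26 for WT vehicle, 0.89 and 1.03 for WT SI-2, 0.87 and 0.85 for BR vehicle and 1.02 and 0.89 for BR SI-2. MX1, a dynamin-like antiviral GTPase, had FPKM values of 0.63 and 1.44 for WT vehicle, 0.7 and 1 for WT SI-2, 1.2 and 0.95 for BR vehicle and 0.45 and 0.89 for BR SI-2. ISG15, a ubiquitin-like modifier, had estimated counts of 2 and 5 for WT vehicle, 2 and 9 for WT SI-2, 4 and 5 for BR vehicle and 12 and 5 for BR SI-2. No library held more than 12 ISG15 counts. IFI27 had FPKM values of 0.85 and 1.23 for WT vehicle, 1.46 and 1.63 for WT SI-2, 1.69 and 1.47 for BR vehicle and 1.57 and 2.21 for BR SI-2, with a mean of 17.6 counts. IFI44 was at or under 3 counts in every library, and 8 of the 46 genes had a mean count under 10.

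Some stimulated genes were expressed nevertheless. IFIH1 (MDA5, a sensor of double-stranded RNA) had FPKM values of 12.99 and 14.6 for WT vehicle, 20.3 and 14.9 for WT SI-2, 11.8 and 18.5 for BR vehicle and 17.1 and 19.6 for BR SI-2. The genes OAS1, OAS2 and OAS3, which share its role group here but not its gene family, had means of 0.451, 0.364 and 0.0213 FPKM. BST2 (tetherin), a membrane protein that holds virus particles at the cell surface, had a mean of 33.98 FPKM against at most 1.11 for the 3 IFITM genes. That highest value, of IFITM3, was carried by 1 library, and the mean of the other 7 was 0.163 FPKM. ISG20, an exonuclease, had a mean of 29.5 FPKM, XAF1 had 20.5, and IFI35 had 19.5. DTX3L and PARP9, partner proteins encoded side by side, had 3.48 and 0.73 FPKM.

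Of the wider pathway, 70 further genes were found. The type I interferon receptor chains IFNAR1 and IFNAR2 had means of 30.2 and 26.7 FPKM, the interferon-gamma receptor chains IFNGR1 and IFNGR2 had 9.03 and 12.4, and the kinases JAK1, TYK2 and JAK2 had 22.1, 33.2 and 1.59. The factor IRF3 had 48.9 FPKM. The class II enhanceosome genes RFX5, RFXANK and RFXAP had 92.2, 18.1 and 5.94 FPKM. IFNG, the only interferon gene of the list that was in the table, had at most 2 counts in a library. The effectors RSAD2 and USP18 had means of 0.404 and 0.320 FPKM, and the immunoproteasome subunits PSMB8, PSMB9 and PSMB10 had 53.3, 35.1 and 55.5.

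The first comparison asked whether resistant cells differed from parental cells. Of the 46 genes, 37 passed the filter on low counts and were tested in each fit, and 9 were not (IFIT2, OAS3, MX2, IFITM1, IFITM2, IFITM3, ISG15, IFI44 and IFI44L). Tests were run with edgeR's quasi-likelihood method with Benjamini-Hochberg adjustment over all genes tested, and a gene was called at an adjusted p under 0.05. No member was called between BR and WT cells, either under vehicle (0% of all 13896 genes called), under SI-2 (0.0072% called) or with both treatments pooled, 4 libraries a line (0.362% of 13520 genes called). Under vehicle and under SI-2 respectively, 2 and 2 members had an unadjusted p under 0.05 (5.41% in each, against 3.89% and 4.09% of all genes). With 4 libraries a side there were 6 of 37 (16.2%), against 14.4% of all genes, 1 fitted higher and 5 lower in BR cells. The median log2 fold change of the members was -0.025, and that of all genes was 0.0042. This pooled fit took the vehicle and SI-2 libraries of the same line and number as independent. Their deviations correlated (r of 0.51 in WT and 0.44 in BR cells), so its SE and p may be too small. A fit that kept the 4 conditions as terms called 18 of 13896 genes between the lines, against 49 in the pooled fit. DESeq2 called 0, 0 and 1 members in the same 3 comparisons, and limma on log2(FPKM + 1) called 0 in each.

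**Figure D2:**
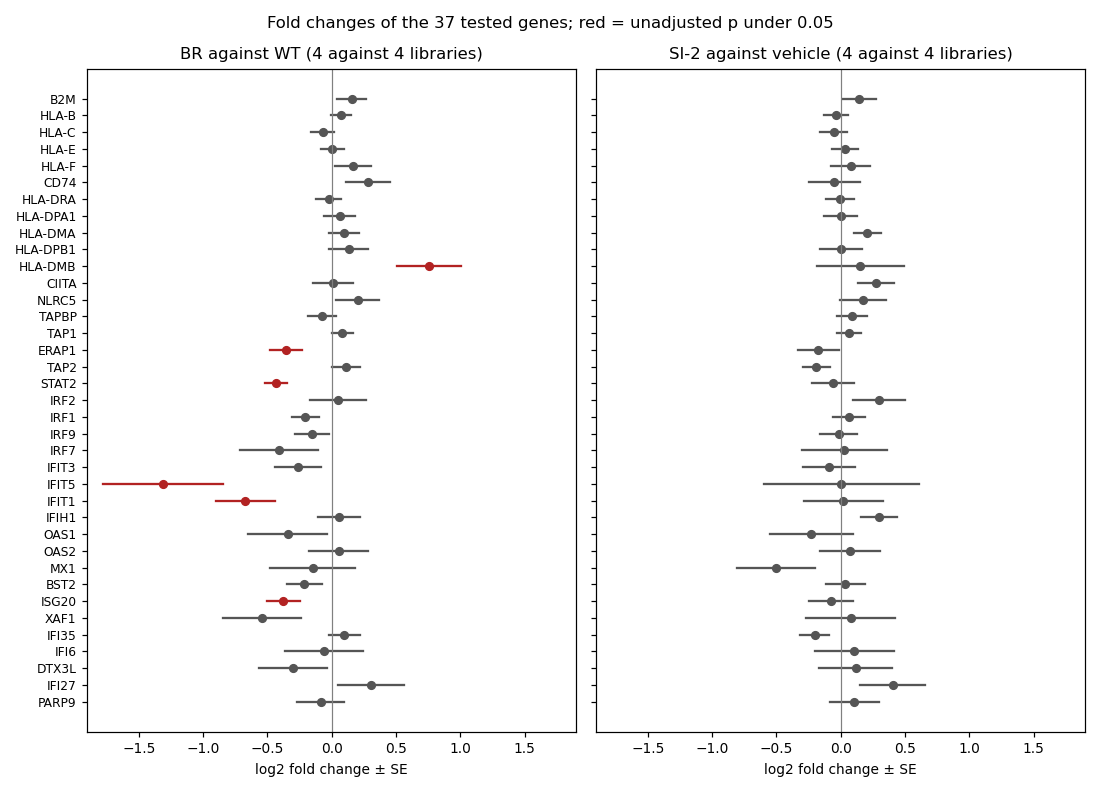
Log2 fold change ± SE of the 37 tested genes, in order of role, for BR against WT (left) and SI-2 against vehicle (right), 4 libraries a side. Red marks an unadjusted p under 0.05, which 6 genes reached on the left and none on the right.

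STAT2 had the smallest p of the members between the lines. It had CPM values (TMM-scaled, replicate 1 and then replicate 2) of 359.8 and 371 for WT vehicle, 358 and 363 for WT SI-2, 287 and 273 for BR vehicle and 279 and 238 for BR SI-2. The 4 WT libraries lay within 358 and 371 CPM and all 4 BR libraries below them, at 238 to 287. The log2 fold change was -0.43 ± 0.086, with an unadjusted p of 4.38e-04 and an adjusted p of 0.0690 by edgeR, which missed the threshold. With the replicate number as a block edgeR called it (-0.43 ± 0.078, adjusted p 0.0388), and DESeq2 gave an adjusted p of 1.56e-04 for the same libraries. Under vehicle alone the log2 fold change was -0.38 ± 0.15 and under SI-2 alone -0.48 ± 0.15, with edgeR adjusted p of 0.967 and 0.998.

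IRF9, the partner of STAT2, had a log2 fold change of -0.15 ± 0.13 (edgeR adjusted p 0.614).

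**Figure D3:**
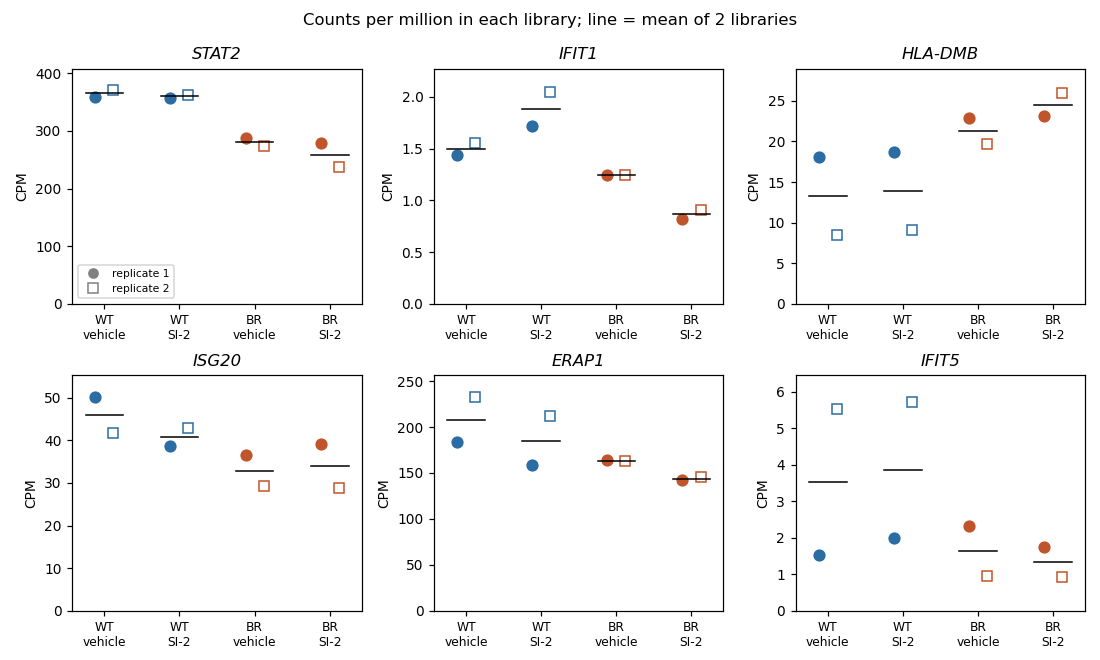
CPM in each library for the 6 members with an unadjusted p under 0.05 between the lines with 4 libraries a side. Blue is WT and orange BR, filled circles are replicate 1, open squares replicate 2, and the line is the mean of the 2 libraries. STAT2 and IFIT1 are lower and HLA-DMB is higher in all 4 BR libraries, and the WT replicate 2 libraries are the lowest of all for HLA-DMB and the highest for ERAP1 and IFIT5.

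Lines without overlap were seen for 3 members. Those higher in every BR library than in any WT library numbered 1 (2.70% of members, against 3.79% of all genes), and those lower numbered 2 (5.41%, against 4.36%). Besides STAT2, these were HLA-DMB and IFIT1. HLA-DMB, a subunit of the HLA-DM editor, had CPM values of 18.1 and 8.47 for WT vehicle, 18.7 and 9.06 for WT SI-2, 22.9 and 19.7 for BR vehicle and 23.1 and 25.96 for BR SI-2. Its log2 fold change was 0.76 ± 0.25 (edgeR adjusted p 0.228), and the 2 WT replicate 2 libraries were far below the other WT libraries. IFIT1, which binds viral RNA that lacks the host cap methylation, had CPM values of 1.44 and 1.56 for WT vehicle, 1.72 and 2.04 for WT SI-2, 1.25 and 1.24 for BR vehicle and 0.818 and 0.9103 for BR SI-2, or 15 to 37 counts. Its log2 fold change was -0.67 ± 0.23 (edgeR adjusted p 0.234), and under SI-2 alone it was -1.09 ± 0.33 (edgeR adjusted p 0.998).

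The other 3 members with an unadjusted p under 0.05 overlapped between the lines. ERAP1 had CPM values of 184 and 233 for WT vehicle, 158 and 212 for WT SI-2, 164 and 163 for BR vehicle and 142 and 146 for BR SI-2, with the WT replicate 2 libraries highest and a log2 fold change of -0.36 ± 0.12. ISG20 had CPM values of 50.1 and 41.8 for WT vehicle, 38.6 and 43 for WT SI-2, 36.5 and 29.2 for BR vehicle and 39.1 and 28.8 for BR SI-2, with a log2 fold change of -0.38 ± 0.13 over both treatments and -0.49 ± 0.20 under vehicle. IFIT5, an RNA-binding IFIT protein, had a log2 fold change of -1.31 ± 0.46, and it had CPM values of 1.53 and 5.53 for WT vehicle, 1.98 and 5.73 for WT SI-2, 2.32 and 0.955 for BR vehicle and 1.75 and 0.936 for BR SI-2, highest in the WT replicate 2 libraries. Their edgeR adjusted p were 0.243, 0.237 and 0.249. The 3 IFIT genes tested were all fitted lower in BR cells, but IFIT3 had an unadjusted p of 0.175.

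The class I genes, CIITA and the class II chains other than HLA-DMB all had an unadjusted p above 0.05 between the lines with 4 libraries a side. B2M had a log2 fold change of 0.15 ± 0.11, HLA-DRA -0.025 ± 0.098, CIITA 0.011 ± 0.16 and TAP1 0.083 ± 0.084, with edgeR adjusted p of 0.548, 0.927, 0.982 and 0.668. Of 57 further pathway genes tested between the lines, 0 were called and 11 had an unadjusted p under 0.05. Of these, 7 were fitted higher in BR cells (NFYA, PSMB9, ERAP2 and RTP4 among them) and 4 lower (CALR, CANX, PDIA3 and TAPBPL). CALR, CANX and PDIA3 are chaperones of glycoprotein folding that also serve class I loading, and TAPBPL edits class I peptides. PDIA3 had a log2 fold change of -0.62 ± 0.20 (edgeR adjusted p 0.218).

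The second comparison asked whether SI-2 changed these genes. It gave no call and no unadjusted p under 0.05 for any of the 37 members, in WT cells, in BR cells or in both together, and all genes gave 0% calls in each of these comparisons. Over all genes that count rose to 67 in BR cells when BR SI-2 replicate 1 was left out, with 0 members among them. At an unadjusted p under 0.05 there were 74 of 13896 genes in WT cells, 167 in BR cells and 300 of 13520 over both. DESeq2 and limma on log2(FPKM + 1) also called 0 members in each. The SI-2 tests took the vehicle and SI-2 libraries of the same line and number as independent. Their deviations correlated (r of 0.51 in WT and 0.44 in BR cells), so here the SE and p may be too large. In each comparison fewer genes reached an unadjusted p under 0.05 than that threshold allows with no difference. An SI-2 effect on a member may therefore have been missed, and no fit that paired these libraries within each line was run. Over both lines the member log2 fold changes ran from -0.50 (MX1) to 0.40 (IFI27), with a median of 0.032 against 0.0004 for all genes.

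B2M had a log2 fold change of 0.15 ± 0.12 with SI-2, CD74 -0.050 ± 0.20, HLA-DRA -0.0035 ± 0.11 and CIITA 0.27 ± 0.14. STAT2 had -0.061 ± 0.16, and MX1, at 1.38 to 4.36 CPM, had -0.50 ± 0.30. For MX1 the 4 SI-2 libraries overlapped the 4 vehicle libraries. The size of the SI-2 effect was also compared between the lines. The difference of the log2 fold changes, BR minus WT, ran from -0.82 to 0.38 over the members with a median of -0.007. No member was called or had an unadjusted p under 0.05 (0 of 37), and edgeR called 0% of all genes. The SE and p of this difference may be too large for the same reason as those of the SI-2 tests. Among the pathway genes, LGALS3BP was fitted higher with SI-2 in BR cells (2.36 ± 0.78 on the log2 scale, edgeR adjusted p of 1), which rested on 67 counts in the BR SI-2 replicate 2 library against 4 to 14 in the others.

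The third comparison was between the replicate numbers. With the 4 replicate 2 libraries set against the 4 replicate 1 libraries, 1 of 37 members was called (2.70%, against 0.925% of all genes). This fit too took the vehicle and SI-2 libraries of a line and number as independent, so its SE and p may be too small. With the 4 conditions as terms, 0 of 13896 genes were called. An unadjusted p under 0.05 was reached by 9 members (24.3%, against 16.9% of all genes). Of those 9, HLA-F, NLRC5, TAPBP, IRF7, XAF1 and DTX3L were fitted higher in replicate 2, and HLA-DPA1, HLA-DPB1 and CD74 lower. The 2 sets of libraries did not overlap for 5 members higher (13.5%, against 5.89% of all genes) and 2 lower (5.41%, against 6.08%). What distinguishes replicate 1 from replicate 2 is not given in the labels. The summed level of the 6 monocyte markers moved with the number, at 48.1 to 81.5 CPM in the replicate 1 libraries and 97.8 to 107 CPM in the replicate 2 libraries. Most of it was ITGAX, while CD14 was at 3 counts or fewer throughout. LYZ went the other way, lower in replicate 2 in every condition but WT SI-2. The 8 plasma cell markers summed to 2960 to 3793 CPM in replicate 1 and 2190 to 3123 CPM in replicate 2. In WT SI-2 cells this sum was not lower in replicate 2 (3035 and 3065 CPM). The plasma cell marker SDC1 was higher in replicate 2 in all 4 conditions, with 24.1 and 31.2 CPM for WT vehicle and 21 and 38.2 for WT SI-2. The part of either list in these differences was not tested.

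IRF7, the called member, had CPM values of 9.61 and 21.03 for WT vehicle, 8.85 and 21.6 for WT SI-2, 8.87 and 13.4 for BR vehicle and 9.48 and 14.04 for BR SI-2. Replicate 2 was higher in all 4 conditions, and the fitted step was 1.21 in WT and 0.58 in BR cells on the log2 scale, a difference with an edgeR adjusted p of 0.0582. The log2 fold change was 0.93 ± 0.17 (edgeR adjusted p 0.0433). That call was lost when any 1 of the 8 libraries was left out, with adjusted p of 0.0547 to 0.111 and log2 fold changes of 0.83 to 1.04. XAF1, a pro-apoptotic interferon-stimulated gene, had CPM values of 39.9 and 116 for WT vehicle, 57.7 and 103 for WT SI-2, 41.5 and 62.7 for BR vehicle and 45.1 and 68.2 for BR SI-2, with a log2 fold change of 0.93 ± 0.20 (edgeR adjusted p 0.0617). DTX3L, a ubiquitin ligase, had CPM values of 12.9 and 30.2 for WT vehicle, 19.2 and 26.9 for WT SI-2, 13.5 and 20.99 for BR vehicle and 14.04 and 23.9 for BR SI-2, with 0.78 ± 0.16 (edgeR adjusted p 0.0538). For both the replicate sets stood apart and the adjusted p missed the threshold, while DESeq2 called both.

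The other 6 were 3 genes of the class I pathway, fitted higher in replicate 2, and 3 class II genes, fitted lower. HLA-F, a non-classical class I gene, had CPM values of 38.3 and 49.9 for WT vehicle, 45.1 and 47.8 for WT SI-2, 39.96 and 58.8 for BR vehicle and 46.5 and 57.9 for BR SI-2, and TAPBP had 348 and 411 for WT vehicle, 358 and 441 for WT SI-2, 334 and 380.2 for BR vehicle and 348 and 417 for BR SI-2. Their log2 fold changes were 0.34 ± 0.11 and 0.25 ± 0.083. NLRC5 had CPM values of 37.1 and 56.8 for WT vehicle, 57.3 and 60.3 for WT SI-2, 48.3 and 71.6 for BR vehicle and 55.9 and 67.4 for BR SI-2, with 0.37 ± 0.14 and the WT vehicle replicate 1 library below all others. In the other direction, HLA-DPA1 had CPM values of 249 and 200 for WT vehicle, 229 and 221 for WT SI-2, 271 and 199.5 for BR vehicle and 259 and 209.8 for BR SI-2, with -0.28 ± 0.087. HLA-DPB1, the partner chain, had CPM values of 97.3 and 71.5 for WT vehicle, 89.04 and 78.01 for WT SI-2, 111 and 72.5 for BR vehicle and 105 and 80.4 for BR SI-2, with -0.41 ± 0.094. CD74 had CPM values of 1635 and 932 for WT vehicle, 1444 and 993 for WT SI-2, 1713 and 1355 for BR vehicle and 1538 and 1465 for BR SI-2, with -0.41 ± 0.15 and its lowest values in the 2 WT replicate 2 libraries. The edgeR adjusted p of these 6 genes lay between 0.0681 and 0.216. They were picked by p and do not stand for their whole classes. All 6 class II members were fitted lower in replicate 2. So were 1 of 5 class I genes and 1 of 4 loading genes, while CIITA was fitted higher. HLA-DRB1, a class II gene that is no member, had CPM values of 60.5 and 85.9 for WT vehicle and 60.6 and 87.5 for WT SI-2. In BR cells HLA-DRB1 had 68.1 and 66.05 under vehicle and 74.45 and 73.4 under SI-2. Of the pathway genes, IFNGR2 and ZBP1 were called higher in replicate 2, by 0.57 ± 0.10 and 0.69 ± 0.13 on the log2 scale (edgeR adjusted p 0.0385 and 0.0433).

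The same contrast was then taken within each line, in a fit chosen after the data had been seen. Its 4 groups were the vehicle and SI-2 library of 1 line and 1 replicate number, so its error is the spread between a treated and an untreated library of the same number and does not cover the spread between cultures. In WT cells 6 of 37 members were called (16.2%, against 8.87% of all genes). In BR cells 7 were (18.9%, against 9.56%). Within WT cells the 2 replicate 2 libraries lay above the 2 replicate 1 libraries for 14 members (37.8%, against 28.6% of all genes) and below them for 6 (16.2%, against 28.1%). Within BR cells they lay above for 13 (35.1%, against 27.1%) and below for 12 (32.4%, against 29.6%). The calls changed with single libraries. Leaving out 1 library in turn gave 0 to 8 calls in WT cells and 0 to 11 in BR cells, with 0 in both when either WT replicate 2 library was left out, and 5 in WT and 0 in BR cells without BR SI-2 replicate 2. A group left with 1 library was then assumed to vary like the others.

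In WT cells IRF7, IFIT5, XAF1 and DTX3L were higher in replicate 2, by 1.21 ± 0.12, 1.67 ± 0.23, 1.16 ± 0.16 and 0.83 ± 0.18 on the log2 scale. HLA-DMB and CD74 were lower, with log2 fold changes of -1.07 ± 0.15 and -0.68 ± 0.094. In BR cells IRF7 and DTX3L were again higher (0.58 ± 0.12 and 0.71 ± 0.18), while HLA-DRA, HLA-DPA1, HLA-DPB1, IFIT5 and IFI6 were lower. The log2 fold changes of those 5 were -0.30, -0.37, -0.49, -1.10 and -1.24. Of the genes called in both lines, IFIT5 alone had opposite signs. The edgeR adjusted p were 0.00299 to 0.0292 in WT and 0.0172 to 0.046 in BR cells.

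**Figure D4:**
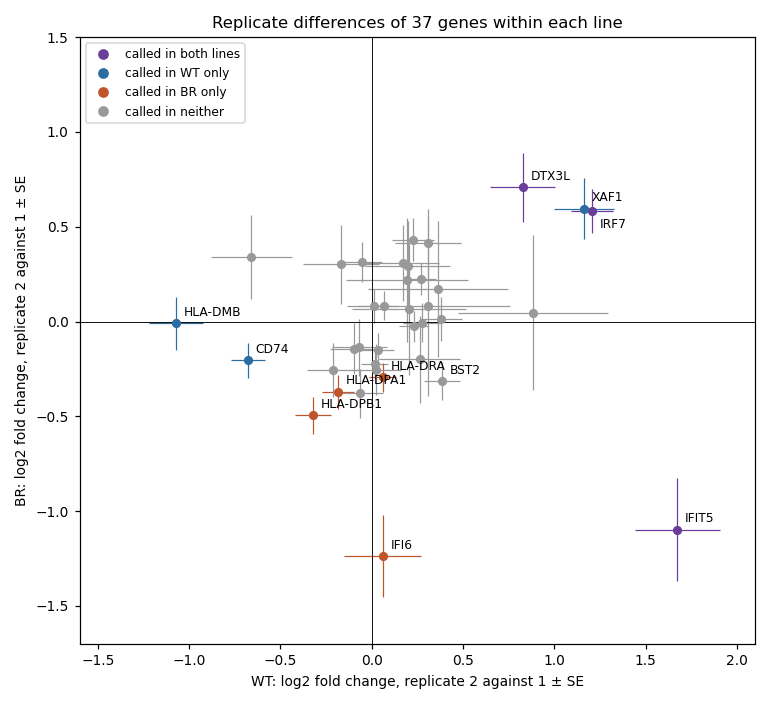
Log2 fold change of replicate 2 against replicate 1 within WT (x axis) and within BR cells (y axis) for the 37 tested genes, with SE bars, from the fit of 4 groups of 2 libraries. IRF7 and DTX3L are higher in replicate 2 of both lines, IFIT5 is higher in WT and lower in BR, HLA-DMB and CD74 were called in WT cells only, and 5 of the genes called in BR cells lie below 0.

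The difference between the 2 replicate effects, BR minus WT, was called for 4 members (10.8%, against 6.32% of all genes): IFIT5 (-2.77 ± 0.36), IFI6 (-1.30 ± 0.30), BST2 (-0.70 ± 0.14) and HLA-DMB (1.06 ± 0.20, all log2). BST2 had CPM values of 32.6 and 40.7 for WT vehicle, 30.7 and 42.03 for WT SI-2, 32.7 and 28.4 for BR vehicle and 37.3 and 27.8 for BR SI-2. Its highest values were those of the WT replicate 2 libraries and its lowest those of the BR replicate 2 libraries. IFI6, a mitochondrial survival protein that was picked out after its values had been seen, had CPM values of 3.24 and 3.21 for WT vehicle, 3.41 and 3.73 for WT SI-2, 4.75 and 1.65 for BR vehicle and 4.46 and 2.24 for BR SI-2, lowest in the BR replicate 2 libraries. None of the 4 was called when any 1 of the 4 replicate 2 libraries was left out, and only IFIT5 was without WT SI-2 replicate 1. IFI6 was called in none of the 8 fits with 1 library left out.

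The comparison of the lines gave different values in the 2 replicates. Within replicate 1, BR against WT gave 0 called members (0.389% of all genes called), and 2 had an unadjusted p under 0.05 (5.41%, against 12.9% of all genes). Within replicate 2 it gave 10 (27.0%, against 19.7% of all genes). HLA-DMB and CD74 were higher in BR cells, by 1.38 ± 0.15 and 0.55 ± 0.094. The other 8 were lower: ERAP1 (-0.53), STAT2 (-0.52), IRF7 (-0.63), IFIT5 (-2.57), BST2 (-0.56), ISG20 (-0.55), IFI6 (-0.83) and XAF1 (-0.74). The edgeR adjusted p of the 10 were 0.00109 to 0.0325. Of these calls HLA-DMB and IFIT5 alone were left without WT vehicle, WT SI-2 or BR SI-2 replicate 2, and CD74, HLA-DMB, IFIT5 and STAT2 were left without BR vehicle replicate 2. STAT2 had -0.34 ± 0.088 within replicate 1 and -0.52 ± 0.088 within replicate 2, whereas IFIT5 had 0.21 ± 0.25 within replicate 1.

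The IFITM genes, membrane proteins that block virus entry, were above 4 counts in 1 library only. IFITM3 had estimated counts of 0 and 4 for WT vehicle, 1 and 4 for WT SI-2, 0 and 3 for BR vehicle and 2 and 90 for BR SI-2. IFITM2 had 25 and IFITM1 had 18 counts in BR SI-2 replicate 2, where no other library had more than 3 and 2. OAS3 had 10 counts there, where no other library had more than 3. None of these 4 genes passed the count filter, so none was tested.

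That same library stood apart from the others in fibroblast markers. The sum of COL1A1, COL1A2, COL3A1 and DCN was 121 CPM in BR SI-2 replicate 2 and 0.222 to 0.690 CPM in the other 7 libraries, with all 4 markers at 143 counts or more there and at 6 or fewer elsewhere. The 4 T cell markers were low throughout. CD4 had 13 counts in that library and at most 2 elsewhere, CD3E and CD2 had 3 each against at most 1 and 2, and CD8A had 2 against up to 5. Of the wider pathway list, GBP2 and IFI16, picked out after their values had been seen, had 47 and 42 counts there against at most 3 and 4 in any other library. LGALS3BP (67 counts, at most 14 elsewhere), EPSTI1 (18, at most 9), GBP1 (14, at most 4), DDX60 (14, at most 7) and MX2 (12, at most 6) were also highest there. Not every stimulated gene was higher. OASL (1 count, 3 to 7 elsewhere) and HERC5 (299 counts, 315 to 586 elsewhere) were at their lowest in this library. The part of the fibroblast and T cell markers in the IFITM and OAS3 counts was not tested. The 3 IFITM genes are related in sequence, so the split of reads between them is uncertain. Their counts were fractional in at least 1 library, as were those of STAT2 and other members, which does not show which genes shared reads. Without this library the 1 call between the replicate numbers, IRF7, was lost, as it was without any other, and of the calls in the fit by line and replicate number 2 of 10 were left within replicate 2 and 0 of 7 within BR cells.

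**Figure D5:**
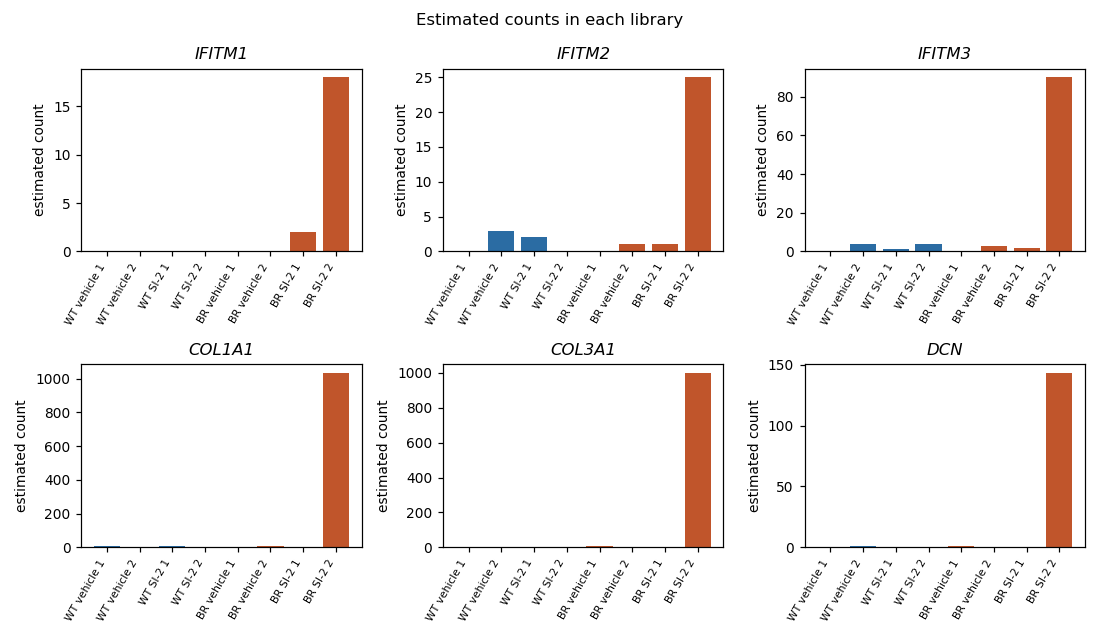
Estimated counts of the 3 IFITM genes (upper row) and of 3 fibroblast markers (lower row) in each library, blue for WT and orange for BR. All 6 genes have their highest bar in BR SI-2 replicate 2, where IFITM3 had 90 counts and COL1A1 had 1032.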

How the data were processed

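RNA from 8 libraries of LP-1 cells was sequenced on a BGISEQ platform, and the authors removed low-quality reads. The submitters' processing notes name BWA, Bowtie2, RSEM and the build hg19. The authors deposited estimated counts, the RSEM-style expected counts, per gene and per transcript, in which reads shared by several genes are divided among them, and FPKM values scaled by length and library size. Tables of the authors' own comparisons (fold changes and p-values) were not used.

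Estimated counts were rounded to whole numbers, filtered with filterByExpr, scaled by TMM (factors 0.971 to 1.06) and tested with edgeR 4.0.16 (quasi-likelihood) in R 4.3.3. One fit over the 4 conditions (13896 genes) gave 5 comparisons, and fits of 4 against 4 libraries (13520 genes) gave 3. P-values were adjusted over all genes tested by Benjamini-Hochberg. The fits had first been tested on simulated independent counts with a single dispersion. Those held no difference that varied by both line and replicate number, so that test does not cover such differences. SE are the log2 fold change over the root of its F value. A within-replicate fit was added after the data had been seen. Alternatives were other scalings and filters, the replicate block, DESeq2 1.42.0, limma 3.58.1 on log2(FPKM + 1) and log2(FPKM + 0.1), the newer edgeR fit and leaving out each library.

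The members and lists were chosen with earlier results of these data known. Values in every library are given for the most abundant member of each role, every member with an unadjusted p under 0.05 and a mean count of at least 20, and 13 members fixed by name. Promoters came from RefSeq (GRCh38.p14), a different build from the counts, and are used for sequence only. A floor of 3 counts covers counting error only, and total counts differed little between libraries. Some results on further pathway genes and markers are not reported here.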

Additional observations from a re-analysis of the deposited data

Results flagged for a closer look

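Of 91 groups of 4 libraries (46 genes in 2 lines, less 1 gene at 0 throughout a line), 10 held a library far from the other 3. The rule flags about 1 in 20 groups only for 4 independent normal values. These groups mix vehicle and SI-2 libraries, so no excess over chance is read from the 10. Of the flagged genes, MX2, OAS3, IFITM1, IFITM2, IFITM3, ISG15 and IFI44L were below the count filter, where a few counts can set off the rule. In WT cells the vehicle replicate 1 library was low for NLRC5 (37.1 CPM, against 56.8 to 60.3 in the others) and for MX2 (0.114 CPM, against 0.220 to 0.229, at 4.90 counts on average). In BR cells the vehicle replicate 1 library was high for TAP2 (160.3 CPM, against 126 to 131) and low for IRF2 (62.0 CPM, against 98.8 to 105). The BR SI-2 replicate 2 library was high for OAS3 (0.520 CPM, against 0), IFITM1 (0.957 CPM, against 0 to 0.0998), IFITM2 (1.31 CPM, against 0 to 0.0695) and IFITM3 (4.70 CPM, against 0 to 0.143). The last 3 moved together with the fibroblast markers of the same library, and the part of those markers was not tested. ISG15 was high in BR SI-2 replicate 1 (0.658 CPM, against 0.226 to 0.265) and IFI44L in BR vehicle replicate 2 (0.148 CPM, against 0), both at under 6 counts on average.

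The difference between replicate 2 and replicate 1 was itself different between BR and WT cells for 4 members, with edgeR in the fit added after the data had been seen. On the log2 scale, BR minus WT, it was -1.30 for IFI6, 1.06 for HLA-DMB, -0.70 for BST2 and -2.77 for IFIT5, with adjusted p of 0.0427, 0.0277, 0.032 and 0.0113. The spread in this fit does not cover that between cultures. None of the 4 was called when any 1 of the 4 replicate 2 libraries was left out, and IFI6 in none of the 8 fits with 1 library left out.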

How the results depend on the processing

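The 7 comparisons that gave 0 called members kept that count under every alternative run, except BR against WT with 4 libraries a side. There the replicate block and DESeq2 each called 1, STAT2, and the fit within replicate 2, added after the data had been seen, called 10. For replicate 2 against replicate 1, where edgeR called 1, upper-quartile scaling called 3, scaling by library size only 3, DESeq2 6 and condition terms 0. The added fits within WT and within BR called 6 and 7. Leaving out each library in turn gave 0 to 1, and 0 in the other 7 comparisons. In the fit by line and replicate number it gave 2 to 13 calls for BR against WT within replicate 2 (10 with all libraries), 0 within replicate 1, 0 to 8 within WT (6), 0 to 11 within BR (7) and 0 to 6 for the difference between the lines (4). IFIT5 turned from -1.31 between the lines to 0.21 within replicate 1. Over all genes, calls between the lines went from 49 to 155 with the block, 399 with DESeq2, 18 with condition terms and 21 to 125 when a library was left out. Calls between the replicates went from 125 to 196 with upper-quartile scaling, 740 with DESeq2, 62 and 56 with limma at the pseudocounts 1 and 0.1, 0 with condition terms and 0 to 93 when a library was left out. For BR against WT under SI-2, DESeq2 called 34 genes, limma 0, and leaving out a library gave 0 to 67, against 1. The SI-2 comparison within the BR line likewise gave 0 to 67, against 0. The causes were not tested. The replicate block changed no other call of members. Deviations of same-numbered libraries correlated over 13896 genes with r of 0.51 between the WT conditions, 0.44 between the BR conditions, 0.21 between the vehicle conditions, 0.10 between the SI-2 conditions, 0.19 between WT vehicle and BR SI-2 and -0.18 between WT SI-2 and BR vehicle. As 1 of the 6 was not over 0.1, the numbers were not taken to pair the libraries. Depth leaves 9 of the 46 genes untested, 8 of them with a mean count under 10.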
